A study of Homo sapiens with 16 samples.

Results

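TNF superfamily ligands and receptors were followed as 10 genes, 4 ligands (TNF, LTB, TNFSF10 and TNFSF15) and 6 receptors (TNFRSF1A, TNFRSF1B, TNFRSF9, TNFRSF10B, TNFRSF11B and FAS). They were chosen by name, with earlier results of these data known, among the 57820 genes of the count tables. Each symbol was matched to its Ensembl identifier. All 10 passed the filter on low counts in both serum conditions, which kept 16069 protein-coding genes in low serum and 15414 with standard serum. The bulk RNA-Seq libraries came from MDA-MB-231 and MDA-MB-436, established mesenchymal triple-negative breast cancer cell lines. All sublines, the negative ones included, had been transfected with the 7TGP vector, in which Tcf/Lef binding sites drive eGFP, and kept under puromycin selection. Repeated FACS sorting on eGFP then gave a 7TGP-POS and a 7TGP-NEG subline of each line, which are enriched pools rather than single clones. Each subline was sequenced after 3 days in low serum (0.5% FBS) and after 6 days in standard serum (10% FBS), with 2 replicates per group, 8 groups and 16 libraries.

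Ligands of this superfamily are mostly trimeric membrane proteins, some of which are also released by proteolysis, and they cluster receptors at the cell surface. TNFRSF1A, TNFRSF10B and FAS carry a cytoplasmic death domain and can lead either to NF-κB activation or to caspase-dependent cell death. TNFRSF1B and TNFRSF9 have no death domain and recruit TRAF adaptors, whereas TNFRSF11B (osteoprotegerin) is secreted and acts as a decoy. In breast cancer cells, TNF and NF-κB signalling are best known for inducing chemokines and survival genes.

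Serum, days in culture, library kit and sequencing run cannot be told apart in this design, so levels in the 2 serum conditions are set side by side with no test. Cell line and culture medium also cannot be told apart according to the study's methods, which give a different medium for each line. Library totals lay between 27918418 and 32667756 counts in low serum and between 31827130 and 46044073 in standard serum. Replicates differed most in the 7TGP-POS subline of MDA-MB-436 with standard serum, where the SD of log2 CPM had a median of 0.0984 over genes, and this median was 0.0437 to 0.0695 elsewhere. Of the mesenchymal markers, VIM (group means of 672 to 4905 CPM), AXL and ZEB1 were expressed in both lines. CDH2 (at most 1.49 CPM) and TWIST1 (at most 0.0520 CPM) were near 0 in MDA-MB-231. The epithelial genes CDH1 and GRHL2 stayed at 12 counts or fewer in every library, whereas KRT19 reached 553 to 816 CPM in MDA-MB-231. Of the leukocyte markers, the lymphocyte genes CD3E, MS4A1 and NKG7 had 0 to 2 counts in every library, whereas 4 other genes passed the filter on low counts. PTPRC (CD45) reached 1.93 to 9.23 CPM in MDA-MB-231 and was 1.14 ± 0.19 log2 units higher in its 7TGP-POS cells in low serum. The monocyte gene CD14 had group means of 1.78 to 10.3 CPM over both lines. It was higher in 7TGP-POS cells in low serum (0.39 ± 0.13 in MDA-MB-231 and 0.98 ± 0.12 in MDA-MB-436) and lower in those of MDA-MB-436 with standard serum (-0.68 ± 0.17). ITGAM reached 4.76 CPM in MDA-MB-436 and was lower in its 7TGP-POS cells (-1.22 ± 0.19 and -1.48 ± 0.21), and CSF1R reached 3.14 CPM in MDA-MB-231 with no call. The summed level of these 7 genes in low serum was 9.36 to 11.7 CPM in 7TGP-NEG and 13.2 to 13.9 CPM in 7TGP-POS cells of MDA-MB-231, and 10.3 to 10.6 against 12.1 to 13.4 CPM in MDA-MB-436. With standard serum it was 9.11 to 9.68 against 11.3 to 11.6 CPM in MDA-MB-231 and 9.15 to 9.88 against 4.73 to 5.90 CPM in MDA-MB-436. The part of these genes in other results was not tested. The reporter gene itself is not among the genes counted. Of 10 canonical Wnt target genes, 7TGP-POS cells of MDA-MB-231 had 5 higher and 1 lower in low serum and 1 and 1 with standard serum, and those of MDA-MB-436 had 3 and 2, then 2 and 2 (adjusted p under 0.05). Of all genes, 38.9% and 33.0% passed in MDA-MB-231 and 52.0% and 49.5% in MDA-MB-436.

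The expression of each member is given as CPM, the counts scaled to a common library total, singly for both replicates or as mean ± SD with n = 2, and fold changes come from edgeR's quasi-likelihood test on TMM-scaled counts with Benjamini-Hochberg adjustment over all genes tested. A gene is called a DEG when its adjusted p is under 0.05 and its log2 fold change reaches 1 in either direction. Because TMM rescales the libraries, a fitted difference between the lines can depart from the ratio of CPM values. The labels name the replicates only by number, so p-values measure the spread between these samples. Each reporter state of a line is a single sorted subline. The tests therefore do not cover differences between independently sorted sublines of the same state. Counts of settings and ranges of adjusted p over alternative settings leave out the test against a fold of 2.

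In MDA-MB-231, the 7TGP-POS subline had 4 members as DEGs against the 7TGP-NEG one in low serum (TNFSF15, LTB, TNFRSF11B and TNFRSF1B), all of them higher, where 5.90% of all genes were DEGs and 3.50% were DEGs that were higher. With standard serum 3 members were DEGs, again all higher (TNFSF15, TNFRSF11B and LTB), against 7.69% of all genes and 4.96% higher. In MDA-MB-436, 2 members were higher (TNFRSF11B and TNFRSF1B) and 1 was lower (TNFRSF9) in 7TGP-POS cells in both conditions. Over all genes, 10.5% were DEGs there in low serum, 6.52% higher and 4.03% lower, and 12.5% with standard serum, 6.47% higher and 6.06% lower. TNFRSF11B was the member that was a DEG in all 4 comparisons, always higher in 7TGP-POS cells, whereas TNFRSF9 passed the test with opposite signs in the lines. Because the members were chosen with earlier results known, the all-gene shares are a background and no test of the members as a set.

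With the adjusted p alone, 8 members were higher and 1 lower in MDA-MB-231 in low serum (38.9% of all genes passed, 19.0% higher and 19.9% lower), and 6 and 1 with standard serum (33.0%, as 16.8% and 16.2%). In MDA-MB-436, 2 were higher and 3 lower in low serum (52.0%, as 26.6% and 25.3%), and 3 and 2 with standard serum (49.5%, as 26.1% and 23.4%). The 6 receptors had a median log2 fold change of 0.70 and 0.45 in MDA-MB-231 and of -0.10 and 0.25 in MDA-MB-436, beside all-gene medians of -0.01, 0.00, 0.01 and 0.00. The reporter-state difference itself differed between the lines for 6 members in low serum, 5 with the higher value in MDA-MB-231 and 1 with the lower (45.7% of all genes, as 21.1% and 24.6%), and for 3 and 2 with standard serum (41.2%, as 18.8% and 22.4%). Replicates of the reporter states did not overlap for 9 members in MDA-MB-231 and 9 in MDA-MB-436 in low serum, where this held for 65.7% and 74.0% of all genes, and for 10 and 7 members in standard serum, against 66.9% and 73.2% of all genes. In bulk RNA, a larger share of cells that express a gene and more RNA per cell cannot be told apart.

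**Figure D1:**
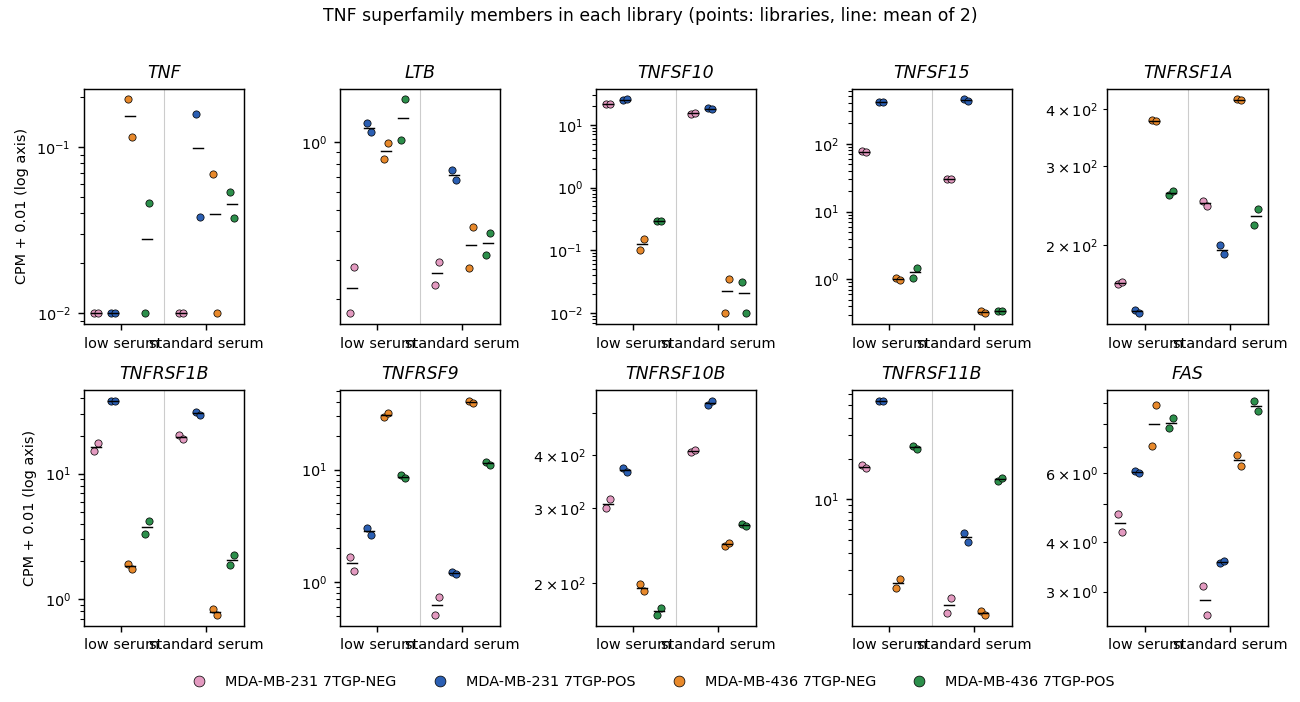
CPM + 0.01 on a log axis (a different range in each panel) for the 10 members, with low serum on the left and standard serum on the right of each panel; points are libraries and lines the mean of 2 replicates. TNFSF15 in MDA-MB-231 7TGP-POS cells sits at 412 to 454 CPM, while the 8 MDA-MB-436 libraries stay at 1.47 CPM or lower.

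TNFSF15 (TL1A, the ligand of TNFRSF25) had the largest reporter-state difference of the members in MDA-MB-231 with standard serum and was near 0 in MDA-MB-436. In low serum its log2 fold change in MDA-MB-231 (2.44) was close to that of LTB (2.41). The gene (ENSG00000181634) lies on the minus strand of chr9:117546932-117568319 (GRCh37). In MDA-MB-231 in low serum, 7TGP-NEG replicates had 77.8 and 75.6 CPM and 7TGP-POS replicates 412 and 416 CPM. In standard serum these were 30.6 and 30.3 CPM against 454 and 425 CPM. Every 7TGP-POS library was above every 7TGP-NEG library. The log2 fold change was 2.44 ± 0.05 (SE) in low serum (adjusted p = 2.86e-32, edgeR) and 3.80 ± 0.08 in standard serum (adjusted p = 6.18e-16, edgeR). In MDA-MB-436 the replicates had 1.04 and 0.978 CPM in 7TGP-NEG and 1.04 and 1.47 CPM in 7TGP-POS cells in low serum, and all 4 libraries had 0.306 to 0.329 CPM in standard serum. Neither serum condition gave a call there, with log2 fold changes of 0.29 ± 0.21 and -0.00 ± 0.31. The difference of the log2 fold changes between the lines was 2.16 ± 0.23 in low serum (adjusted p = 3.08e-10, edgeR) and 3.80 ± 0.36 in standard serum (adjusted p = 1.66e-07, edgeR).

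The 250 bases before the TNFSF15 start are shown because of the size of this difference. They lie at chr9:117568320-117568569 (GRCh37, minus strand, upstream of the MANE Select transcript, outside annotated exons) and are printed in the direction of the gene.
TNFSF15: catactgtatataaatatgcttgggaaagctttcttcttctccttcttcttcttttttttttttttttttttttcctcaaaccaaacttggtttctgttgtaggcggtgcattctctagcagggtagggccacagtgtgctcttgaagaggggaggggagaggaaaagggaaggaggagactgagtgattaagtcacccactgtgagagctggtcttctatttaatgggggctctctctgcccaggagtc
Searched on both strands for the Tcf/Lef motif ATCAAAG, the AP-1 motif TGANTCA and the NF-κB consensus, this stretch held none of them. Of 18792 promoters of the same length, 1.72% held the first, 4.71% the second and 5.91% the third. The absence of a match says only that these letters are not in this stretch.

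LTB (lymphotoxin beta, which anchors lymphotoxin alpha in the membrane and signals through LTBR) was a low gene in every group. It (ENSG00000227507, GRCh37) lies at chr6:31548302-31550299, close to TNF. MDA-MB-231 7TGP-NEG replicates held 5 and 8 counts in low serum and 7TGP-POS replicates 36 and 31. In standard serum the counts were 8 and 9 against 25 and 24, so the groups did not overlap in either condition. LTB rose by 2.41 ± 0.42 log2 units in low serum (0.215 ± 0.073 to 1.15 ± 0.08 CPM, adjusted p = 8.11e-06, edgeR) and by 1.43 ± 0.41 in standard serum (0.252 ± 0.044 to 0.705 ± 0.051 CPM, adjusted p = 0.0124, edgeR). The standard serum call rests on few counts: it was lost without 7TGP-NEG replicate 1 (log2 fold change 1.27) and without 7TGP-POS replicate 1 (1.34). With all libraries it was lost with DESeq2 (1.42, adjusted p = 0.153, DESeq2 Wald test). With log2(TPM + 1) it fell under the fold threshold (0.75). Over 18 alternative settings its adjusted p ranged from 0.00123 to 0.153. In MDA-MB-436, 27 and 28 counts in 7TGP-NEG and 32 and 43 in 7TGP-POS cells in low serum gave 0.48 ± 0.30 (adjusted p = 0.180, edgeR), and 9 and 16 against 14 and 14 counts in standard serum gave -0.06 ± 0.42. The difference between the lines passed in low serum (1.93 ± 0.53, adjusted p = 0.00258, edgeR) and not with standard serum (1.49 ± 0.60, adjusted p = 0.0561, edgeR), where 4 of 17 alternative settings passed (0.00588 to 0.280).

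TNFSF10 (TRAIL, the ligand of TNFRSF10A and TNFRSF10B) was a gene of MDA-MB-231. It (ENSG00000121858, GRCh37) lies at chr3:172223298-172241265. In low serum the replicates had 21.3 and 21.6 CPM in 7TGP-NEG and 24.3 and 25.4 CPM in 7TGP-POS cells, and in standard serum 15.0 and 15.3 CPM against 18.6 and 17.6 CPM. The 7TGP-POS libraries were the higher ones in both conditions, by little: the log2 fold change was 0.22 ± 0.08 in low serum (adjusted p = 0.0305, edgeR) and 0.20 ± 0.12 in standard serum (adjusted p = 0.215, edgeR), where the fit of that line alone gave 0.22 and passed (1 of 18 settings). The low serum result passed in 13 of 19 alternative settings (adjusted p from 0.0103 to 0.962). It did not pass without 7TGP-NEG replicate 1 (0.21), 7TGP-NEG replicate 2 (0.23) or 7TGP-POS replicate 2 (0.17), nor with DESeq2 (0.24), log2(TPM + 1) (0.02) or log2(TPM + 0.1) (0.02). MDA-MB-436 held 3 and 4 counts in 7TGP-NEG and 9 and 8 in 7TGP-POS cells in low serum, a difference of 1.28 ± 0.57 log2 units (adjusted p = 0.0630, edgeR), which passed in 1 of 19 settings, log2(TPM + 0.1) with 0.64 (0.0120 to 0.385). Each of its 4 standard serum libraries held 0 or 1 count.

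TNF itself, the prototype of the family, was at or close to 0 in every group. It (ENSG00000232810, GRCh37) lies at chr6:31543342-31546113. In MDA-MB-231 all 4 low serum libraries and both 7TGP-NEG libraries of standard serum held 0 counts, and the 7TGP-POS libraries of standard serum held 5 and 1. A count of 0 allows up to 3 counts in a library. MDA-MB-436 held 6 and 3 counts in 7TGP-NEG and 0 and 1 in 7TGP-POS cells in low serum, and 2 and 0 against 2 and 1 counts in standard serum. None of the 4 reporter-state comparisons passed, and no fold change is given for them. Between the lines, the 7TGP-NEG cells in low serum passed (adjusted p = 0.0117, edgeR), with the higher level in MDA-MB-436. Its mean there was 1.46-fold that of 3 counts per library in MDA-MB-231, and it rests on libraries of 6 and 3 counts. This call was not followed singly over the alternative settings. At this depth the level could not be told from 0 in most groups.

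**Figure D2:**
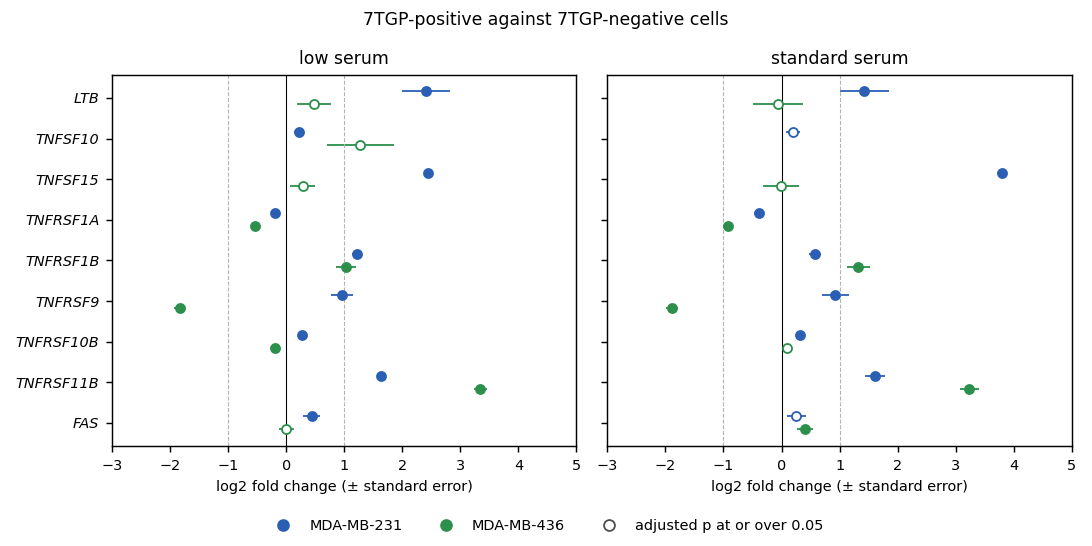
Log2 fold change of 7TGP-POS against 7TGP-NEG cells (edgeR, ± standard error) for 9 members in each line and serum condition. TNF is left out, as is TNFSF10 in MDA-MB-436 in standard serum. In each of these comparisons at least 1 of the groups held 3 counts or fewer per library. Dashed lines mark a log2 fold change of 1 in each direction and open points an adjusted p at or over 0.05; TNFRSF9 lies to the right of 0 in MDA-MB-231 and to the left in MDA-MB-436.

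TNFRSF11B, the secreted decoy that binds TNFSF11 (RANKL) and TNFSF10, had the largest reporter-state difference of the 6 member receptors in both lines. It (ENSG00000164761, GRCh37) lies at chr8:119935796-119964124. In MDA-MB-436 the 7TGP-NEG replicates had 2.20 and 2.55 CPM and the 7TGP-POS replicates 24.8 and 23.8 CPM in low serum, and in standard serum 1.48 and 1.38 CPM against 13.7 and 14.4 CPM. This was a log2 fold change of 3.35 ± 0.11 (adjusted p = 8.91e-27, edgeR) and of 3.24 ± 0.16 (adjusted p = 2.16e-11, edgeR). In MDA-MB-231 the values were 17.9 and 17.0 CPM against 53.5 and 53.5 CPM in low serum and 1.43 and 1.85 CPM against 5.60 and 4.82 CPM in standard serum. The groups again did not overlap, and the log2 fold change was 1.63 ± 0.07 (adjusted p = 9.86e-22, edgeR) and 1.62 ± 0.17 (adjusted p = 9.32e-07, edgeR). The increase was smaller in MDA-MB-231, with a difference between the lines of -1.72 ± 0.14 in low serum (adjusted p = 1.53e-13, edgeR) and of -1.62 ± 0.25 with standard serum (adjusted p = 4.21e-05, edgeR). Its ligand TNFSF11 held at most 4 counts in any library, and its other ligand TNFSF10 is described above. The 250 bases before the TNFRSF11B start held a match to ATCAAAG on the strand of the gene, 66 to 60 bases before the start. No match to AP-1 or NF-κB was found there. Of 18792 promoters of the same length, 1.72% held ATCAAAG, and the match was not tested as a site.

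TNFRSF1B (TNFR2, which prefers membrane-bound TNF) was higher in 7TGP-POS cells in all 4 comparisons. It (ENSG00000028137, GRCh37) lies at chr1:12227048-12269285. MDA-MB-231 replicates had 15.1 and 17.6 CPM against 37.9 and 37.6 CPM in low serum and 20.5 and 18.8 CPM against 31.1 and 29.5 CPM in standard serum. The log2 fold change was 1.22 ± 0.08 (adjusted p = 1.74e-15, edgeR) and 0.57 ± 0.10 (adjusted p = 0.000268, edgeR), and the second is below the DEG threshold. In MDA-MB-436, 1.90 and 1.75 CPM stood against 3.32 and 4.23 CPM in low serum, and 0.829 and 0.740 CPM against 1.87 and 2.25 CPM in standard serum. This gave 1.02 ± 0.17 (adjusted p = 2.82e-06, edgeR) and 1.33 ± 0.19 (adjusted p = 1.87e-05, edgeR). The low serum value in MDA-MB-436 lay at the threshold and fell under it without 7TGP-NEG replicate 2 (0.98), without 7TGP-POS replicate 2 (0.83), with DESeq2, its size factors or edgeR's own filter on low counts, filterByExpr (0.99 each), and with log2(TPM + 1) (0.52) or log2(TPM + 0.1) (0.74). Its adjusted p was between 1.13e-08 and 0.00343 in tests against no change, and the test against a fold of 2 did not pass (adjusted p = 1, edgeR). The lines did not differ beyond error in low serum (0.19 ± 0.20, adjusted p = 0.455, edgeR). In standard serum the increase was smaller in MDA-MB-231 (-0.76 ± 0.22, adjusted p = 0.0109, edgeR), a call that was lost without MDA-MB-436 7TGP-NEG replicate 2 (-0.67; adjusted p over 17 settings from 0.00677 to 0.247).

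TNFRSF1A (TNFR1, the main receptor for soluble TNF) was one of the members with the highest levels and was lower in 7TGP-POS cells in all 4 comparisons, each time by less than the DEG threshold. It (ENSG00000067182, GRCh37) lies at chr12:6437923-6451280. MDA-MB-436 replicates had 378 and 377 CPM in 7TGP-NEG and 259 and 265 CPM in 7TGP-POS cells in low serum, and 421 and 419 CPM against 222 and 241 CPM in standard serum. MDA-MB-231 replicates had 164 and 166 CPM against 144 and 142 CPM in low serum and 251 and 245 CPM against 200 and 191 CPM in standard serum. No 7TGP-POS library reached its 7TGP-NEG counterparts. TNFRSF1A fell by 0.54 ± 0.05 log2 units in MDA-MB-436 in low serum (adjusted p = 6.11e-13, edgeR) and by 0.92 ± 0.07 in standard serum (adjusted p = 1.01e-08, edgeR). In MDA-MB-231 it fell by 0.20 ± 0.05 (adjusted p = 0.000811, edgeR) and by 0.40 ± 0.07 (adjusted p = 0.000303, edgeR). The decrease was larger in MDA-MB-436 in both conditions, with a difference between the lines of 0.34 ± 0.07 in low serum (adjusted p = 5.03e-05, edgeR) and 0.52 ± 0.10 in standard serum (adjusted p = 0.000486, edgeR).

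TNFRSF9 (4-1BB, a costimulatory receptor best known from T cells) was mainly a gene of MDA-MB-436 7TGP-NEG cells. It (ENSG00000049249, GRCh37) lies at chr1:7975931-8003225. In MDA-MB-436 the replicates had 29.4 and 32.0 CPM in 7TGP-NEG and 8.94 and 8.38 CPM in 7TGP-POS cells in low serum, and 40.9 and 39.5 CPM against 11.7 and 11.0 CPM in standard serum. TNFRSF9 fell by 1.83 ± 0.10 on the log2 scale (adjusted p = 1.37e-19, edgeR) and by 1.88 ± 0.11 (adjusted p = 9.46e-11, edgeR). In MDA-MB-231 the direction was the opposite: 1.66 and 1.23 CPM against 3.01 and 2.61 CPM in low serum and 0.497 and 0.723 CPM against 1.22 and 1.17 CPM in standard serum. The increases of 0.96 ± 0.20 (adjusted p = 9.62e-05, edgeR) and 0.93 ± 0.23 (adjusted p = 0.00490, edgeR) passed the test but not the fold threshold. Without 7TGP-NEG replicate 1 (1.19) or 7TGP-POS replicate 2 (1.03) in low serum, and without 7TGP-NEG replicate 2 in standard serum (1.19), the fold threshold was reached. Without 7TGP-NEG replicate 1 in standard serum (0.68) the test was not passed, and over 18 settings the adjusted p was 0.00198 to 0.122. The difference between the lines was 2.79 ± 0.22 in low serum (adjusted p = 4.67e-14, edgeR) and 2.81 ± 0.25 in standard serum (adjusted p = 9.06e-08, edgeR). TNFSF9, its ligand, was lower in 7TGP-POS cells in both lines and conditions (log2 fold changes of -0.87 and -0.95 in MDA-MB-231 and -1.36 and -1.13 in MDA-MB-436). CD3E, which marks T cells, had at most 2 counts in any library.

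LTB and TNFRSF9 are the members with an NF-κB match before the start of the MANE Select transcript. The stretch around each match is shown to let the matches be compared. Both stretches lie within the annotated span of their gene, which begins further upstream than this start. Of the 250 bases searched, 30 lay in annotated exons for LTB and 94 for TNFRSF9. Each is 30 bases in the direction of the gene (GRCh37, both genes on the minus strand), at chr6:31550269-31550298 and chr1:8000954-8000983. Capitals mark the matched bases.
LTB: aggggtgtgcGGAAAGTCCCagccaggtgt
TNFRSF9: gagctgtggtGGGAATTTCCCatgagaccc
The LTB match lies 87 to 78 bases before the start, on the strand opposite to the gene. The TNFRSF9 capitals cover matches on both strands that overlap, at 74 to 65 and 73 to 64 bases before the start. TNFRSF9 also held an AP-1 match (TGANTCA, which reads the same on both strands) 44 to 38 bases before the start. No match to any of the 3 motifs was found before TNF, TNFSF10, TNFRSF1A, TNFRSF1B or TNFRSF10B, and FAS was not searched because the annotation used gave no MANE Select transcript for it. These matches are a description of the letters and were not tested as sites.

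TNFRSF10B (DR5, a death receptor for TNFSF10) had high levels throughout and changed little. It (ENSG00000120889, GRCh37) lies at chr8:22877646-22926544. In MDA-MB-231 the replicates had 300 and 314 CPM against 373 and 364 CPM in low serum, and 405 and 410 CPM against 522 and 535 CPM in standard serum. TNFRSF10B rose by 0.27 ± 0.05 on the log2 scale (adjusted p = 9.53e-06, edgeR) and by 0.32 ± 0.07 (adjusted p = 0.00123, edgeR). On the TPM scale the low serum increase was 0.07 with either pseudocount and did not pass. In MDA-MB-436 it fell by 0.20 ± 0.05 in low serum (199 and 191 CPM against 169 and 175 CPM, adjusted p = 0.000754, edgeR), and in standard serum 245 and 248 CPM against 275 and 273 CPM gave 0.09 ± 0.07 (adjusted p = 0.279, edgeR), with 0.19 and a pass on both TPM scales (0.0146 to 0.516 over 18 settings). The difference between the lines passed in low serum (0.47 ± 0.07, adjusted p = 2.53e-07, edgeR) and not in standard serum (0.23 ± 0.10, adjusted p = 0.0699, edgeR), although it passed there without MDA-MB-436 7TGP-POS replicate 1 (0.25; adjusted p over 17 settings from 0.0231 to 0.197). In standard serum the difference between the lines also passed with DESeq2 (0.24) and with a replicate block (0.23), which makes 3 of 17 settings. Counts of this gene are uncertain at 2 points. It shares sequence with its paralogs TNFRSF10A, TNFRSF10C and TNFRSF10D, and 377 of its exonic bases overlap RHOBTB2 on the other strand, which fell by 0.37 and 0.79 in MDA-MB-231. Whether the counting used strand is not given in the sources used here.

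FAS (CD95, the receptor of FASLG) stayed between 2.61 and 9.12 CPM in all 16 libraries. It (ENSG00000026103, GRCh37) lies at chr10:90750414-90775542. MDA-MB-231 replicates had 4.70 and 4.24 CPM against 6.05 and 5.99 CPM in low serum and 3.09 and 2.61 CPM against 3.53 and 3.57 CPM in standard serum. MDA-MB-436 replicates had 7.01 and 8.90 CPM against 7.80 and 8.24 CPM in low serum, where the groups overlapped, and 6.66 and 6.23 CPM against 9.12 and 8.59 CPM in standard serum. The difference was 0.44 ± 0.14 log2 units for MDA-MB-231 in low serum (adjusted p = 0.0124, edgeR) and 0.40 ± 0.13 in MDA-MB-436 in standard serum (adjusted p = 0.0179, edgeR). These calls passed in 14 of 19 and 14 of 18 alternative settings, with adjusted p from 0.00586 to 0.332 and from 0.00501 to 0.155. The first did not pass without 7TGP-NEG replicate 2 (0.37) or 7TGP-POS replicate 2 (0.42), nor with DESeq2 (0.45), log2(TPM + 1) (0.18) or log2(TPM + 0.1) (0.23). The second did not pass without 7TGP-NEG replicate 1 (0.45), 7TGP-NEG replicate 2 (0.34) or 7TGP-POS replicate 1 (0.33), nor with DESeq2 (0.38). The other 2 comparisons did not pass (0.26 ± 0.16 in MDA-MB-231 in standard serum and 0.00 ± 0.12 in MDA-MB-436 in low serum). In low serum the difference between the lines was 0.43 ± 0.19 (adjusted p = 0.0575, edgeR). It passed in 4 of 18 settings (adjusted p from 0.0107 to 0.367): without MDA-MB-436 7TGP-NEG replicate 1 (0.63), with DESeq2's size factors (0.48), with filterByExpr (0.48) and with a replicate block whose numbers were crossed (0.43). FAS shares 380 exonic bases with ACTA2 on the other strand, and ACTA2 was higher in MDA-MB-436 7TGP-POS cells by 1.43 in low serum and 1.38 with standard serum. The part of these shared reads in the FAS values was not tested.

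**Figure D3:**
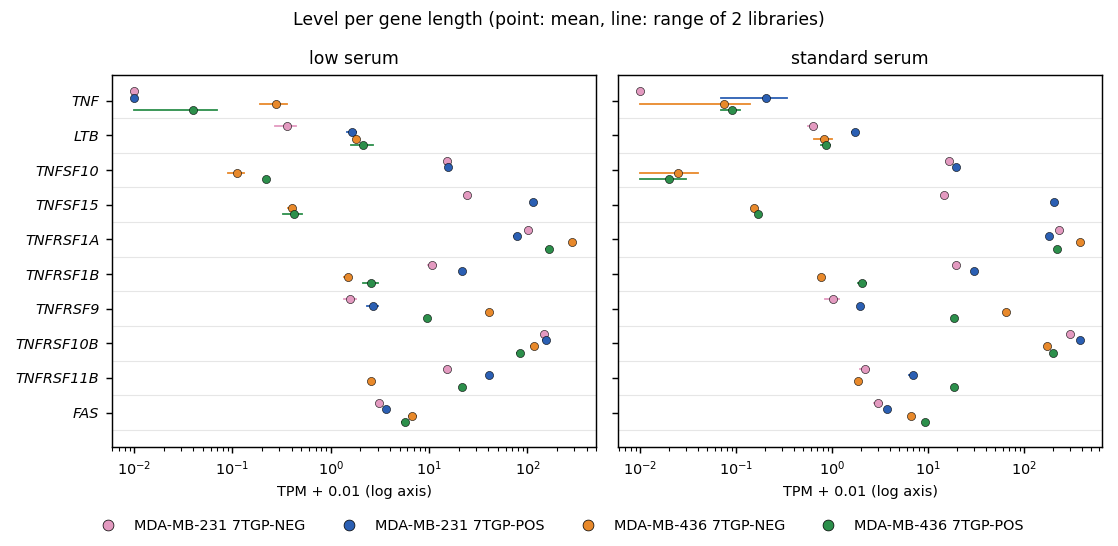
TPM + 0.01 on a log axis for the 10 members in the 4 groups of each serum condition; points are means of 2 replicates and lines their range. TNFRSF1A and TNFRSF10B take the first places in MDA-MB-436 and 2 of the first 3 in MDA-MB-231, where TNFSF15 in 7TGP-POS cells stands between them.

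Levels of different genes were compared per length, as the deposited TPM values. TNFRSF1A had the highest level of the members in all 4 MDA-MB-436 groups (166 to 383 TPM) and TNFRSF10B in all 4 MDA-MB-231 groups (147 to 381 TPM). TNFSF15 was the second in MDA-MB-231 7TGP-POS cells, with 114 TPM in low serum and 207 TPM in standard serum, and was at 0.145 to 0.410 TPM in MDA-MB-436. TNFRSF9 held place 3 or 4 of the 10 in MDA-MB-436 (9.62 to 64.3 TPM) and place 8 in MDA-MB-231 (1.00 to 2.68 TPM). In MDA-MB-436 in low serum, TNFRSF11B held place 3 in 7TGP-POS cells with 21.8 TPM and place 5 in 7TGP-NEG cells with 2.55 TPM. TNF and LTB stayed at or under 2.13 TPM in every group. Both receptors of TNF were present in MDA-MB-231, TNFRSF1B at 10.7 to 29.9 TPM, whereas MDA-MB-436 had TNFRSF1B at 0.760 to 2.56 TPM. In low serum a single gene held 5.77% to 20.6% of all TPM of a library, against 1.34% to 2.23% in standard serum, so TPM in low serum also moves with that gene.

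**Figure D4:**
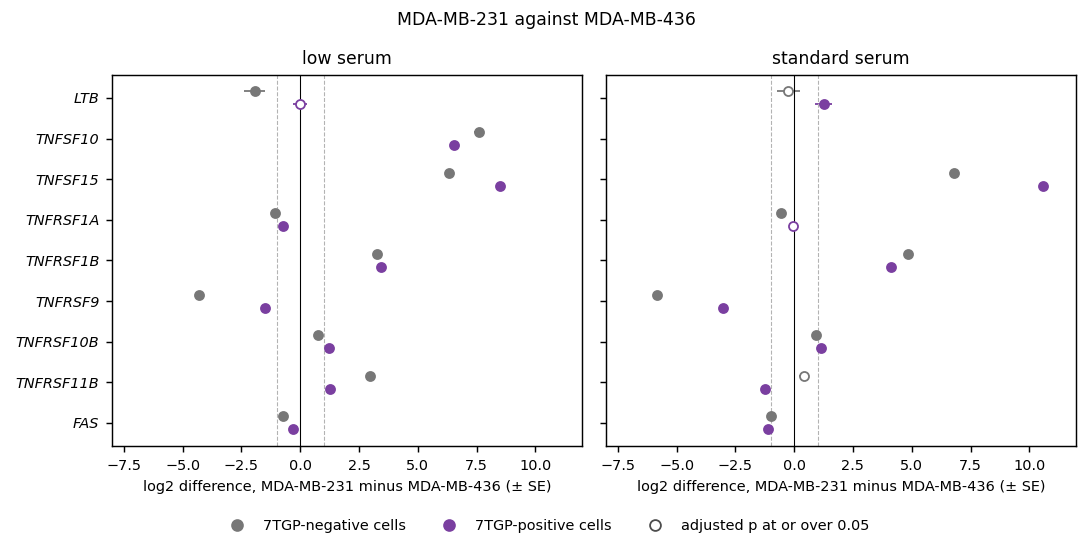
Log2 difference between the lines (MDA-MB-231 minus MDA-MB-436, edgeR, ± standard error) for 9 members in 7TGP-NEG and 7TGP-POS cells, with dashed lines at a difference of 1 in each direction and open points for an adjusted p at or over 0.05; TNF is left out, as is TNFSF10 in standard serum, where MDA-MB-436 held 3 counts or fewer per library. TNFSF10, TNFSF15 and TNFRSF1B lie far to the right of 0 and TNFRSF9 to the left.

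More members were DEGs between the lines than between the reporter states, as was so for all genes. Of all genes, 5.90% to 12.5% were DEGs between the reporter states and 38.9% to 46.7% between the lines. In 7TGP-NEG cells, 8 members were DEGs between the lines in low serum and 4 with standard serum, against 41.9% and 46.7% of all genes. The 8 include TNF, which held 6 and 3 counts in MDA-MB-436 and 0 in MDA-MB-231. In 7TGP-POS cells, 6 and 8 members were DEGs, against 38.9% and 45.4% of all genes. TNFSF10 was 7.60 ± 0.21 log2 units higher in MDA-MB-231 in 7TGP-NEG cells and 6.55 ± 0.17 in 7TGP-POS cells in low serum. Against 3 counts per library in MDA-MB-436, its level with standard serum was at least 183-fold higher in the 7TGP-NEG cells of MDA-MB-231 and at least 245-fold higher in the 7TGP-POS cells. TNFSF15 was 6.34 ± 0.10 and 8.50 ± 0.09 log2 units higher in MDA-MB-231 in low serum and 6.78 ± 0.14 and 10.58 ± 0.13 with standard serum, in 7TGP-NEG and 7TGP-POS cells. TNFRSF1B was higher in MDA-MB-231 by 3.26 to 4.85 log2 units over the 4 comparisons. TNFRSF9 was lower in MDA-MB-231 in each of them, with differences of -4.29 ± 0.13 and -1.50 ± 0.14 in low serum and -5.84 ± 0.16 and -3.04 ± 0.15 with standard serum. TNFRSF11B and LTB were the members whose calls turned direction. TNFRSF11B was higher in MDA-MB-231 in low serum (2.98 ± 0.11 in 7TGP-NEG and 1.26 ± 0.07 in 7TGP-POS cells) and lower in 7TGP-POS cells with standard serum (-1.22 ± 0.14). In 7TGP-NEG cells with standard serum it was 0.40 ± 0.21 (adjusted p = 0.0830, edgeR), and this was 0.57 and passed without MDA-MB-231 7TGP-NEG replicate 1. LTB was lower in MDA-MB-231 in 7TGP-NEG cells in low serum (-1.94 ± 0.44) and higher in 7TGP-POS cells with standard serum (1.25 ± 0.37). The second difference passed in 16 of 17 settings (adjusted p from 0.00147 to 0.106) and not with DESeq2 (1.26). TNFRSF10B was higher in MDA-MB-231 by 0.76 to 1.23 log2 units in all 4 comparisons, and FAS was lower, with values from -1.11 to -0.29, the last in 7TGP-POS cells in low serum and past the test in 8 of 18 settings (0.000692 to 0.210).

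Within a serum condition the 4 groups were put in order of their mean CPM, and neighbours were compared in the same model. Of all genes, 79.2% differed between the lines in low serum in 7TGP-NEG cells and 78.5% in 7TGP-POS cells, and 79.2% and 78.2% between unlike reporter states of the lines. With standard serum these were 78.8%, 79.4%, 79.6% and 78.6%. Other neighbours were the sublines of the same line. Between those, 38.9% of all genes differed in MDA-MB-231 and 52.0% in MDA-MB-436 in low serum, and 33.0% and 49.5% with standard serum. The 30 neighbouring pairs of the members were of both kinds, and 22 differed in low and 18 in standard serum (adjusted p under 0.05). For TNFRSF1B and TNFRSF9 all neighbours differed in both conditions. TNFRSF1B was highest in 7TGP-POS and then 7TGP-NEG cells of MDA-MB-231, followed by the same order in MDA-MB-436. TNFRSF9 was highest in 7TGP-NEG and then 7TGP-POS cells of MDA-MB-436, followed by the reverse order in MDA-MB-231. For TNFSF15 and TNFSF10, the MDA-MB-436 sublines did not differ beyond error in either condition, and TNFSF10 did not in the MDA-MB-231 sublines with standard serum. TNFRSF11B was highest in the 7TGP-POS cells, those of MDA-MB-231 in low serum and those of MDA-MB-436 with standard serum, and its lowest pair with standard serum, both 7TGP-NEG, did not differ. For TNFRSF1A, the lowest pair with standard serum, both 7TGP-POS, did not differ (adjusted p = 0.682, edgeR), and all other neighbours did. Of these, MDA-MB-231 7TGP-NEG against MDA-MB-436 7TGP-POS cells with standard serum passed in 15 of 17 settings and not on the TPM scales (0.10 with either pseudocount, adjusted p up to 0.183 with limma). LTB was lowest in MDA-MB-231 7TGP-NEG cells in low serum, and neighbours among the 3 groups above did not differ. With standard serum it was highest in the 7TGP-POS cells of MDA-MB-231, and neighbours among the 3 groups under them did not differ. For FAS, the MDA-MB-436 sublines did not differ in low serum, nor the MDA-MB-231 sublines with standard serum. The step from MDA-MB-436 7TGP-NEG to MDA-MB-231 7TGP-POS cells in low serum (0.28, adjusted p = 0.0448, edgeR) passed in 10 of 18 settings (adjusted p up to 0.590) and was lost without any 1 of the MDA-MB-231 libraries and without MDA-MB-436 7TGP-NEG replicate 2, where the difference was 0.0956. This FAS step was also lost with DESeq2, with all biotypes and in the fit that is not robust. For TNFRSF10B, the MDA-MB-436 sublines with standard serum did not differ. No neighbours differed for TNF.

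The gene most like each member in its pattern was sought among 12903 protein-coding genes whose mean level was 1 CPM or more, by Pearson's r over the 8 group means of log2 CPM with the mean of each serum condition removed. These are 8 points that share libraries, 4 groups in each of 2 conditions, and r is given as a description. For TNFSF15 it was ITPR1, an intracellular calcium channel (r = 0.999), for TNFRSF11B PRTFDC1 (r = 0.989), and for LTB the protocadherin PCDH7 (r = 0.970). For TNFSF10 it was ACSS3 (r = 1.000), for TNFRSF1A RASGEF1A (r = 0.998), for TNFRSF1B EXPH5 (r = 0.997), for TNFRSF9 ILF2 (r = 0.997), for TNFRSF10B the mechanosensitive channel PIEZO2 (r = 0.997), for FAS WNK3 (r = 0.999) and for TNF ARL15 (r = 0.957). The pattern of TNF rests on 6 counts or fewer in each library, so its r says little. Where the lines differ strongly, r mainly follows that difference.

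**Figure D5:**
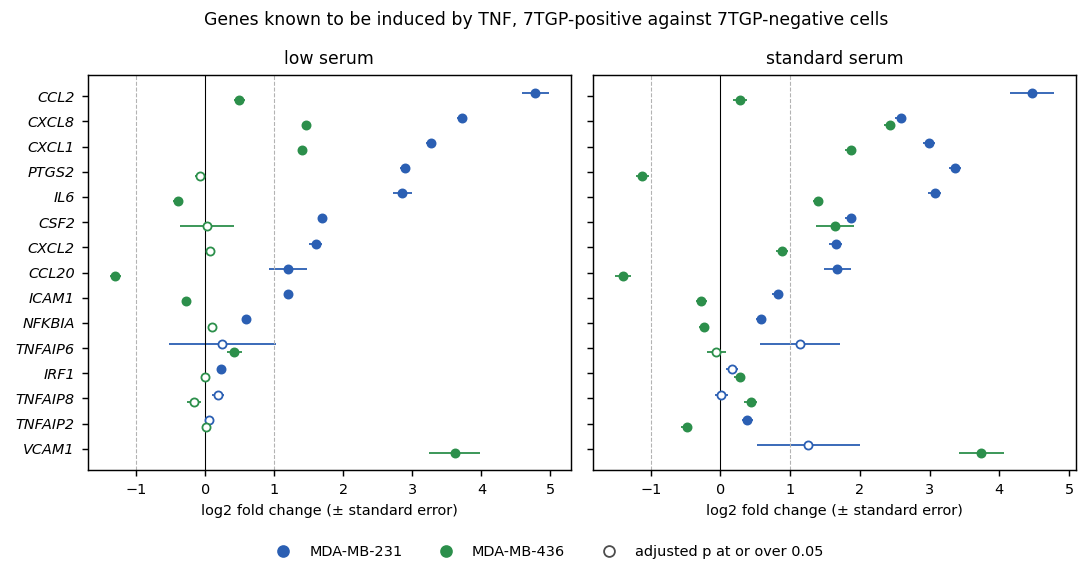
Log2 fold change of 7TGP-POS against 7TGP-NEG cells (edgeR, ± standard error) for 15 genes known to be induced by TNF, in each line and serum condition; dashed lines mark a log2 fold change of 1 in each direction, open points an adjusted p at or over 0.05, and VCAM1 in MDA-MB-231 in low serum is left out because its 7TGP-POS libraries held 2 counts or fewer. In MDA-MB-231, 11 of the 15 genes lie to the right of 0 past the test in each condition.

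Of genes known to be induced by TNF, 15 were measured, from a list chosen with earlier results of these data known. Other stimuli can also induce such genes, and what induced them here was not tested. In MDA-MB-231, 11 were higher and none lower in 7TGP-POS cells in either serum condition at an adjusted p under 0.05. There 38.9% and 33.0% of all genes passed, and 19.0% and 16.8% of all genes passed as higher. DEGs numbered 9 and 8, against 5.90% and 7.69% of all genes. The median log2 fold change of the 15 genes was 1.20 in low serum and 1.65 with standard serum, against -0.01 and 0.00 over all genes tested. The chemokine CXCL8 rose by 3.71 ± 0.06 in low serum (52.7 to 686 CPM) and by 2.58 ± 0.08 in standard serum (114 to 707 CPM). CXCL1 rose by 3.26 ± 0.06 and 2.98 ± 0.09, CCL2, which attracts monocytes, by 4.78 ± 0.20 and 4.47 ± 0.32, and PTGS2, the inducible cyclooxygenase, by 2.89 ± 0.07 and 3.37 ± 0.08. IL6 rose by 2.85 ± 0.14 and 3.07 ± 0.09. In MDA-MB-436, 5 genes were higher and 3 lower in low serum and 9 higher and 5 lower in standard serum (52.0% and 49.5% of all genes passed), with medians of 0.03 and 0.28. CXCL8 (1.46 ± 0.06 and 2.43 ± 0.08), CXCL1 (1.40 ± 0.05 and 1.87 ± 0.08) and the adhesion receptor VCAM1 (3.61 ± 0.36 and 3.74 ± 0.32) rose there. CCL20 fell by 1.30 ± 0.08 and 1.40 ± 0.11, and PTGS2 fell by 1.12 ± 0.09 in standard serum. The change differed between the lines for 13 of the 15 genes in low serum, 12 of them with the higher value in MDA-MB-231, and for 10 in standard serum, 9 of them with the higher value in MDA-MB-231 (45.7% and 41.2% of all genes differed).

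Of 19 genes of the TNFR1 complex measured, MDA-MB-231 had 7 higher and 5 lower in 7TGP-POS cells in low serum and 9 and 5 with standard serum, beside 38.9% and 33.0% of all genes, with medians of 0.02 and 0.11. The ubiquitin ligase BIRC3 (cIAP2) rose by 1.50 ± 0.05 and 1.79 ± 0.09, and TNFAIP3 (A20, which restrains NF-κB) by 1.20 ± 0.06 and 1.64 ± 0.08. These were the 2 DEGs of this group in MDA-MB-231, and both are also known NF-κB targets. In MDA-MB-436, 4 were higher and 5 lower in low serum and 7 and 6 with standard serum, beside 52.0% and 49.5% of all genes (medians 0.01 and 0.08). The only DEG there was OTULIN, a deubiquitinase of linear chains, which fell by 1.64 ± 0.05 and 1.46 ± 0.09. RIPK1, the kinase at the centre of the complex, fell by 0.41 ± 0.06 and 0.35 ± 0.08 in MDA-MB-231.

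Of 9 genes of death signalling, 5 were higher and 1 lower in MDA-MB-231 in low serum and 4 and 1 with standard serum, where 38.9% and 33.0% of all genes passed. RIPK3, the necroptosis kinase, was the DEG in MDA-MB-231, by 2.25 ± 0.71 in low serum from 1 and 5 counts to 9 and 19. In MDA-MB-436, 2 were higher and 5 lower in low serum and 2 and 4 with standard serum, and 52.0% and 49.5% of all genes passed. These shares are also the background of the lists that follow. CASP8, the initiator caspase, rose by 0.25 ± 0.07 and 0.38 ± 0.09 in MDA-MB-231 and fell by 0.19 ± 0.06 and 0.32 ± 0.08 in MDA-MB-436. The related CASP10 rose by 2.23 ± 0.16 and 1.86 ± 0.18 in MDA-MB-436, and MLKL, which executes necroptosis, fell by 1.41 ± 0.09 there in standard serum. Of 5 genes of the non-canonical NF-κB pathway, which LTBR engages, 4 were higher and 1 lower in MDA-MB-231 in both conditions (medians 0.48 and 0.54). The subunits RELB (0.59 ± 0.06 and 0.54 ± 0.13) and NFKB2 (0.32 ± 0.05 and 0.54 ± 0.07) were among the 4, and MAP3K14, the kinase of the pathway, was the gene that fell. In MDA-MB-436, none was higher and 3 lower in low serum, TRAF1 among them by 1.25 ± 0.06, and 1 was higher and 1 lower in standard serum. LTBR itself was lower in MDA-MB-436 7TGP-POS cells (-0.45 ± 0.05 and -0.78 ± 0.07, both past the test) and did not pass in MDA-MB-231. Of 4 genes that control shedding, 2 were higher and 1 lower in MDA-MB-231 in low serum and 1 and 1 with standard serum, and 2 and 0 in MDA-MB-436 in low serum and 1 and 1 with standard serum. None was a DEG.

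Among 14 other ligands of the superfamily, 10 were tested in each condition. In MDA-MB-231, 1 was higher and 3 lower in low serum and 2 and 1 with standard serum, and in MDA-MB-436 1 was higher and 5 lower and 1 and 4. TNFSF18 (GITR ligand) rose by 1.89 ± 0.28 in MDA-MB-231 in low serum. In MDA-MB-436 its 7TGP-NEG libraries held 0 to 2 counts, and against 3 counts per library it was at least 25.4-fold higher in 7TGP-POS cells in low serum (65 and 82 counts) and at least 11.0-fold higher in standard serum (33 and 42 counts). Among 23 other receptors, 18 were tested in low and 17 in standard serum. In MDA-MB-231, 4 were higher and 3 lower in low serum and 4 and 2 with standard serum, and in MDA-MB-436 5 and 6 and then 4 and 3. NGFR fell by 1.85 ± 0.23 and 2.35 ± 0.35 in MDA-MB-231. TNFRSF19 rose in MDA-MB-436 by 1.38 ± 0.27 and 2.47 ± 0.27, and in MDA-MB-231 by 1.08 ± 0.23 in standard serum. TNFRSF11A (RANK) rose by 1.26 ± 0.17 in MDA-MB-231 in standard serum. TNFRSF25, the receptor of TNFSF15, had 8.66 to 12.8 CPM in MDA-MB-231 with no call there, and fell by 1.17 ± 0.25 in MDA-MB-436 in standard serum.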

How the data were processed

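The 16 libraries were grouped by the cell line, reporter state and serum in their labels. The counts deposited by the authors are whole read pairs per gene, not normalized or filtered. Per the methods, low serum libraries were rRNA-depleted (NEBNext directional) and standard serum libraries polyA-selected (TruSeq), whereas the labels name TruSeq for all. STAR (2.6.1a in the submitters' processing notes), hg19 and Gencode v19 were used. How the TPM values deposited by the authors were calculated is not given in the sources used here.

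Symbols came from Gencode v44 lifted to GRCh37. Each serum condition was fitted in 1 model of 4 groups with edgeR 4.0.16 (R 4.3.3, TMM, robust quasi-likelihood), over protein-coding genes whose counts summed to 10 or more. The SE is the size of the log2 fold change over the root of F. The fit was tested on simulated data. A group with 3 counts or fewer in each library is at the floor, and floors cover counting error only. Alternatives were DESeq2 1.42.0, its size factors, other filters and biotypes, a fit per line, a fit that is not robust, a test against a fold of 2, the replicate block, each library left out, and limma 3.58.1 on log2(TPM + 1) and log2(TPM + 0.1), which understate the change of low genes. The crossed block was chosen after seeing the data.

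Members and gene lists were chosen with earlier results of these data known. Named beside the members are list genes that were DEGs, 6 or fewer for a list in a comparison, up to 3 genes of each marker list and the gene nearest in pattern. RIPK1, CASP8, RELB, NFKB2, MAP3K14, LTBR, TNFSF11, RHOBTB2, ACTA2, PTPRC, CD14, CSF1R and ITGAM, and list genes in comparisons where they were no DEG or stood past the first 6, were named after their values were seen. IKBKG and SOD2 could not be matched. A marker gene of the leukocyte list is not reported here.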

Additional observations from a re-analysis of the deposited data

Results flagged for a closer look

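The reporter-state difference of several members differed between the cell lines, by the test of the difference itself (MDA-MB-231 minus MDA-MB-436, edgeR, adjusted p under 0.05). In low serum the difference of the log2 fold changes was 2.79 for TNFRSF9, 2.16 for TNFSF15, 1.93 for LTB, 0.47 for TNFRSF10B, 0.34 for TNFRSF1A and -1.72 for TNFRSF11B. In standard serum it was 3.80 for TNFSF15, 2.81 for TNFRSF9, 0.52 for TNFRSF1A, -0.76 for TNFRSF1B and -1.62 for TNFRSF11B. TNFRSF9 was the member with a change past the test in opposite directions in both serum conditions, and TNFRSF10B in low serum. With 2 replicates per group, no group could be searched for a single library that stands apart.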

How the results depend on the processing

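Most member results kept their direction and their side of the threshold. The number of members that were DEGs in MDA-MB-231 in low serum was 2 with log2(TPM + 1) in place of 4, where LTB (0.96) and TNFRSF1B (0.95) fell just under the fold threshold. The number between the lines in 7TGP-POS cells in standard serum was 5 in place of 8 with the test against a fold of 2. Leaving out 1 library at a time gave 4 to 5 DEGs in MDA-MB-231 in low serum and 2 to 4 in standard serum, 2 to 3 and 3 to 3 in MDA-MB-436, 6 to 7 and 4 to 6 differences between the lines in reporter effect, 7 to 8 and 4 to 5 DEGs between 7TGP-NEG cells, and 6 to 6 and 8 to 8 between 7TGP-POS cells. A lone library of a group is assumed to vary like the others. Between unlike reporter states of the lines, which enter the order of groups, the members were DEGs 12 to 13 times in low and 12 to 14 times in standard serum, over 2 comparisons each. Neighbouring pairs that differed numbered 19 to 22 of 30 (27 with filterByExpr, which dropped TNF) in low and 16 to 19 in standard serum over the alternatives other than the test against a fold of 2.

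Changes of sign were seen for values near 0 that passed no test. FAS in MDA-MB-436 in low serum (0.00) became -0.0346 with DESeq2, -0.0303 with its size factors, -0.0277 with filterByExpr, -0.00534 with all biotypes, -0.21 with log2(TPM + 1) and -0.24 with log2(TPM + 0.1), and -0.18 to 0.19 without 1 library. LTB between 7TGP-POS cells in low serum (-0.01) became 0.0104, 0.0192, 0.0179 and 0.0291 under the first 4 of these, and -0.24 to 0.32 without 1 library. In MDA-MB-436 with standard serum, LTB became 0.0365 and 0.0826 on the TPM scales, and -0.32 to 0.28 without 1 library. TNFSF15 there became 0.00767 in the fit per line, 0.0188 and 0.0860 on the TPM scales, and -0.0599 to 0.0340 without 1 library. Without 1 library, LTB between 7TGP-NEG cells with standard serum ranged from -0.50 to 0.0993, and TNFRSF1A between 7TGP-POS cells there from -0.0873 to 0.0192. The last was -0.26 and passed on both TPM scales. The cause was not tested.

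In low serum the TPM scales moved the median log2 fold change of all genes from -0.01 to -0.13 and -0.19 in MDA-MB-231 and from 0.01 to -0.15 and -0.22 in MDA-MB-436. The share of DEGs that were higher in 7TGP-POS cells went from 59.4% to 46.4% and 42.7%, and from 61.8% to 40.6% and 43.8%. All-gene DEG counts of 948, 1694, 1185 and 1932 (MDA-MB-231 and MDA-MB-436 in low, then in standard serum) were 352, 922, 521 and 975 with the test against a fold of 2 and 302, 793, 522 and 941 with log2(TPM + 1). With log2(TPM + 0.1), 4870 genes differed between the lines in reporter effect in low serum in place of 7345, and with all biotypes 10397 and 9749 genes were DEGs between the lines in low serum in place of 6732 and 6245.

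The deviations of same-numbered replicates had r from -0.15 to 0.05 in low serum and from -0.02 to 0.23 in standard serum, where 4 of 6 pairs of groups were over 0.1. As not all were, the numbers were not taken to pair samples. The replicate block changed 1 member result, the difference between the lines for TNFRSF10B in standard serum, which passed with 0.23 (adjusted p = 0.0342, edgeR). With crossed numbers for MDA-MB-436 7TGP-POS in low serum, 957 and 1695 genes were DEGs, and the difference between the lines for FAS passed (0.43, adjusted p = 0.0402, edgeR).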
